A study of Homo sapiens with 6 samples.

Results

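The genes described here encode the glycine cleavage system (GLDC, AMT, GCSH and DLD), the enzymes that make and transfer lipoate (LIAS, LIPT1 and LIPT2) and subunits of lipoate-dependent 2-oxoacid dehydrogenases (DLAT, DLST and OGDH). These 10 genes were chosen by symbol, and each was read by its 1 named probe set among the 14779 genes measured. Levels come from 6 Affymetrix Human Gene 2.0 ST arrays of LA1-55n, an established human neuroblastoma line. In 3 samples a doxycycline-inducible (teton) hairpin directed at GFP was switched on (shGFP), and in 3 an inducible hairpin directed at the GLDC transcript (shGLDC99). Both groups received doxycycline at 0.5 µg/ml for 7 days and grew in the same serum-supplemented RPMI medium, so the drug and the induction of a hairpin are common to both. A single hairpin represents the loss of GLDC, no culture without doxycycline was analysed here, and whether the hairpin lines are clones is not given in the sources used here. The replicates a, b and c are called independent samples without saying how they were separated, so a p-value here reflects only how these samples vary, which may be technical.

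Glycine cleavage takes place in the mitochondrial matrix and splits glycine into carbon dioxide, ammonia and a methylene group that is passed to tetrahydrofolate. GLDC removes the carboxyl group, the lipoyl arm of GCSH carries the remaining aminomethyl group to AMT, and DLD reoxidises the arm. The 2-oxoacid dehydrogenases also use a lipoyl arm, which their core subunits swing between active sites, and they share DLD as their last enzyme. Lipoate is built on GCSH from an octanoyl chain: LIPT2 attaches the octanoyl group, LIAS inserts the sulphur atoms, and LIPT1 moves the finished lipoyl group to the dehydrogenases.

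The sequences upstream of 3 genes are shown because GLDC and LIAS were the 2 of the 10 genes past the threshold (limma adjusted p under 0.05) and DLD, not past it, had the next smallest adjusted p. Each run holds the 250 bases before the annotated transcription start (the first one listed where a gene has several, as DLD does) from the RefSeq promoter table (GRCh38.p14), read 5′ to 3′ on the gene's strand. Capitals mark the GC box (GGGCGG), the CCAAT box (CCAAT) and the core of the cyclic AMP response element (TGACG), searched on both strands.
GLDC, chr9:6645730-6645979, minus strand: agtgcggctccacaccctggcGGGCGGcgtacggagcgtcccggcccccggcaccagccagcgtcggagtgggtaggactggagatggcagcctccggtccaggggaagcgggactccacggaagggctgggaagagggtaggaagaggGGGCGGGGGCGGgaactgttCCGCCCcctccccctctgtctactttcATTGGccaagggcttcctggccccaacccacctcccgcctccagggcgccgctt
LIAS, chr4:39458806-39459055, plus strand: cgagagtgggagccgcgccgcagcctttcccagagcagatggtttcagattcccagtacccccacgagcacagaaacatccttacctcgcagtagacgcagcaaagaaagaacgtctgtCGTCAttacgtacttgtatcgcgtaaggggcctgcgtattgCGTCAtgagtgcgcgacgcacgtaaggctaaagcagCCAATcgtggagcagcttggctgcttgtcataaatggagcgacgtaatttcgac
DLD, chr7:107890857-107891106, plus strand: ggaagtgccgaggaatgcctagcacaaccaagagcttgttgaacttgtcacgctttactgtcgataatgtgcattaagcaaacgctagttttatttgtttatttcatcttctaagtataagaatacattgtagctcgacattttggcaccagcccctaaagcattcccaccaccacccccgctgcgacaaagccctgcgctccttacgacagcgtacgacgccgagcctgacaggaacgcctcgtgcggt
The GLDC window held 4 GC boxes, of which a pair lie in one run of capitals, and 1 CCAAT box. The LIAS window held 1 CCAAT box and 2 TGACG matches, and the DLD window held none of these motifs. The table matched 9 of the 10 genes, all but OGDH. A GC box was present in 5 of the 9 windows and in 42.3% of 27305 windows of the same length, the CCAAT box in 4 and in 33.04%, and TGACG in 2 (LIAS and DLAT) and in 21.7%. The E-box CACGTG, the motif bound by MYC family proteins, was in 0 of the 9 windows and in 6.49% of all. The composite element of ATF4 (TGATGNAA) and the core of the NRF1 site were likewise in 0 of 9, against 3.19% and 7.58% of all. The GC box, CCAAT and TGACG letters do not contain one another, and a match is only a description of the letters.

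Of 13 markers of sympathetic neuroblastoma cells that were measured, 10 lay above the median gene level of 5.09 on the log2 scale, among them GATA3, HAND2, PHOX2A and DDC, whereas STMN2, DBH and HAND1 lay below it. Of these 13, 2 rose (CHGB and L1CAM) and 3 fell (ISL1, GATA2 and GATA3), against 3.72% and 4.8% of all genes. Of 20 measured markers of 6 other cell types, 1 (THY1) lay above the median gene level. The mean level of 3 fibroblast markers was 3.57 to 3.64 on the shGFP arrays and 3.79 to 3.89 on the shGLDC99 arrays, where LUM rose by 0.52. For 4 epithelial markers it was 3.67 to 3.74 and 3.80 to 3.90, with none past the threshold. LUM and 1 other of the 3 fibroblast markers, and all 4 epithelial markers, lay at or below the brightest of 7 measured hepatocyte markers (4.64). Their levels are therefore not shown to exceed background. Only 3 of 8 listed fibroblast markers were measured. The part of these markers in the results below was not tested.

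GLDC was lower on every shGLDC99 array than on any shGFP array. Its log2 level was 7.85, 7.90 and 7.81 on shGFP arrays a, b and c, and 5.98, 5.65 and 5.93 on the shGLDC99 arrays. The groups lay 1.83 apart at their closest, and shGLDC99 array b was the lowest. GLDC fell by 2.00 ± 0.10 (SE), which left 24.9% of the control level with a 95% interval from 21.1% to 29.4% (limma adjusted p = 0.00101). The fall is that of the targeted transcript and fits the labels of all 6 arrays. By exact two-sided permutation of the 6 arrays p was 0.1, which is the lowest value this design can reach. The spread among the shGLDC99 arrays, 0.180 (SD, n = 3), was wider than among the shGFP arrays, 0.0474 (SD, n = 3). A residual level of 5.85 is above the 7 measured hepatocyte markers, which ranged from 2.36 to 4.64 and serve here as transcripts that this line is not known for.

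Of the 10 genes, 1 rose (LIAS) and 1 fell (GLDC), and the other 8 had an adjusted p above the threshold of 0.05. Over all 14779 genes 8.52% were past it, 3.72% upward and 4.8% downward, and 24.4% had an unadjusted p under 0.05. Against that background 1 of 10 in each direction is no clear excess, and the fall is that of the hairpin's own target. The groups did not overlap for 5 of the 10 genes, DLD, LIAS and DLST upward and GLDC and OGDH downward, against 30.8% of all genes (14.5% upward and 16.3% downward). The median difference over the 10 genes was 0.01 and over all genes -0.01; the median absolute differences were 0.20 and 0.13. Apart from GLDC, the sizes ran from 0.01 to 0.27.

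**Figure D1:**
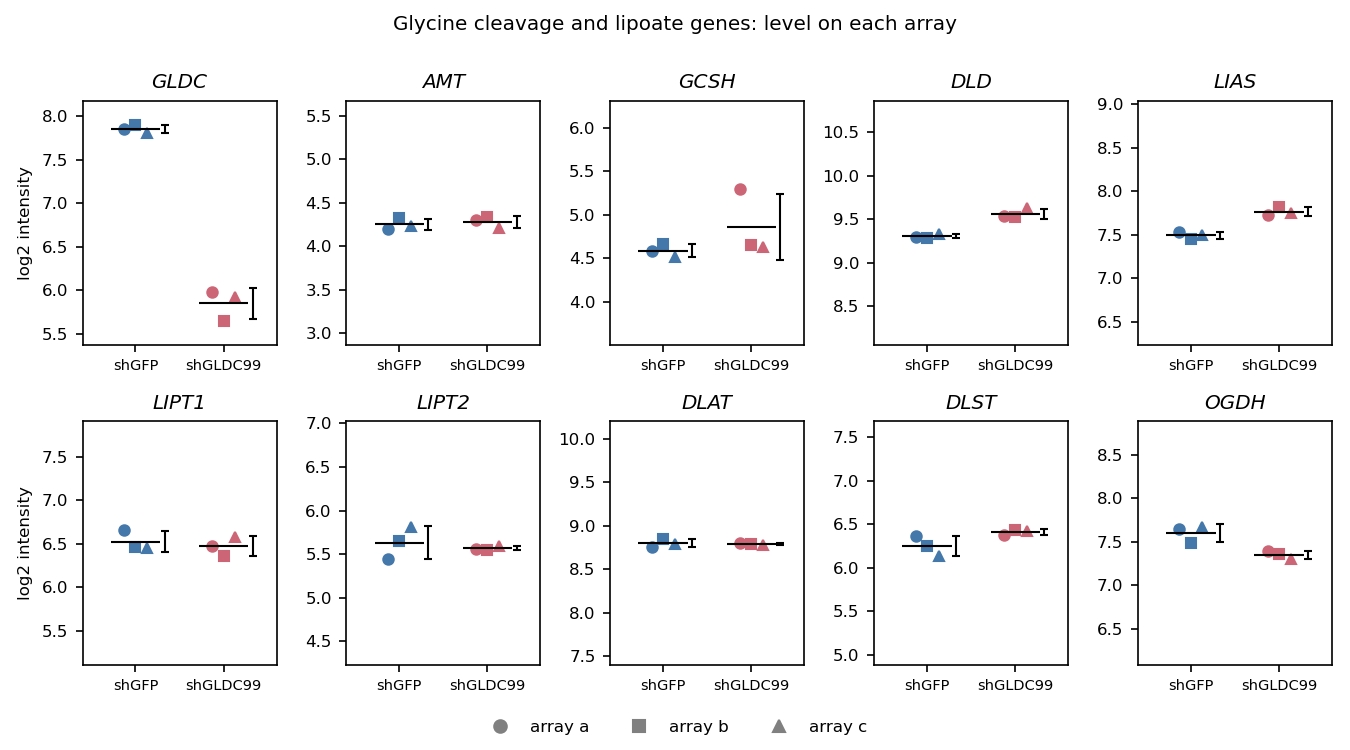
Log2 intensity of each gene on each array, with shGFP in blue and shGLDC99 in red, symbols for arrays a, b and c, the group mean as a line and the SD (n = 3) as a bar; every panel spans the same number of log2 units. GLDC drops from 7.86 to 5.85, whereas GCSH is set apart by shGLDC99 array a at 5.29.

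None of the other 3 glycine cleavage genes was past the threshold, and AMT and GCSH were too dim for a fall to be seen reliably. DLD, the dihydrolipoamide dehydrogenase, gave 9.29, 9.29 and 9.33 on the shGFP arrays and 9.53, 9.53 and 9.63 on the shGLDC99 arrays. All 3 shGLDC99 values were the higher ones, by at least 0.20. The difference was 0.26 ± 0.06 (SE), or 119.5% of the control level with a 95% interval from 108% to 133%, at an adjusted p of 0.0532. It was past the threshold under 4 of 14 other settings. These were quantile normalization of the deposited values, the dimmest 40% of genes left out, a prior variance that follows intensity, and no moderation. DLD was past the threshold in none of the 6 fits that left out 1 array.

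AMT, the aminomethyltransferase, gave 4.20, 4.32 and 4.24 on the shGFP arrays and 4.30, 4.34 and 4.21 on the shGLDC99 arrays. The groups overlapped throughout, and the difference of 0.03 had a 95% interval from -0.14 to 0.19 (adjusted p = 0.846). Its level of 4.25 in shGFP cells is below the median gene and within the range of the hepatocyte markers, so it is not shown to exceed background. A change of the AMT transcript could have been missed for that reason.

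GCSH, the lipoyl carrier, gave 4.58, 4.66 and 4.52 on the shGFP arrays and 5.29, 4.65 and 4.63 on the shGLDC99 arrays. Only array a stood above the rest, 0.66 over the mean of b and c, and the groups overlapped. The difference of 0.27 ± 0.18 (SE) had a 95% interval from -0.16 to 0.70 (adjusted p = 0.429). Without shGLDC99 array a it was 0.05 (adjusted p = 0.765). The range of GCSH within the shGLDC99 group exceeded that of 95.9% of all genes, and its shGFP level of 4.59 also lay among the hepatocyte markers.

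GCSH has 6 pseudogenes by symbol in the reference gene table, and the array names 1 of them, GCSHP3, which was singled out after its values were seen. GCSHP3 gave 7.88, 7.81 and 7.88 on the shGFP arrays and 8.03, 8.21 and 8.16 on the shGLDC99 arrays. The groups did not overlap, and the difference was 0.27 ± 0.07 (SE) at an adjusted p of 0.0669. Here array a was the lowest of its group, unlike for GCSH. How far either probe set reads the other's transcript was not tested, so the GCSH values are uncertain. GLDC, LIPT1 and DLST each have 1 pseudogene by symbol, none of them measured under that name.

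Among the lipoate genes, only the synthase was past the threshold. LIAS, the radical SAM enzyme that inserts sulphur into the octanoyl chain, gave 7.53, 7.45 and 7.49 on the shGFP arrays and 7.72, 7.82 and 7.75 on the shGLDC99 arrays. The groups were 0.19 apart at their closest. LIAS rose by 0.27 ± 0.06 (SE), to 121% of the control level with a 95% interval from 109% to 134% (adjusted p = 0.0479). The call was lost without shGFP array a, b or c and without shGLDC99 array a, b or c (adjusted p = 0.0947 to 0.135), while the difference stayed between 0.25 and 0.29. Among the 9 of 14 settings without the call were also centring each array on its median (adjusted p = 0.0561) and testing all 31135 probe sets (0.0846). Over all 14 settings the adjusted p ran from 0.00304 to 0.136.

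LIPT1, the lipoyl transferase, gave 6.66, 6.46 and 6.45 on the shGFP arrays and 6.48, 6.36 and 6.58 on the shGLDC99 arrays. The groups overlapped, and the difference was -0.05 with a 95% interval from -0.27 to 0.17 (adjusted p = 0.784). LIPT2, the octanoyl transferase, gave 5.44, 5.64 and 5.81 on the shGFP arrays and 5.56, 5.54 and 5.60 on the shGLDC99 arrays. All 3 shGLDC99 values lay within the span of the shGFP values, and the difference was -0.06 with a 95% interval from -0.31 to 0.18 (adjusted p = 0.757). Both intervals overlap that of LIAS (0.12 to 0.42), and the differences between these genes were not tested.

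None of the 3 dehydrogenase subunits was past the threshold. DLAT, the lipoylated core of pyruvate dehydrogenase, gave 8.76, 8.84 and 8.79 on the shGFP arrays and 8.80, 8.79 and 8.78 on the shGLDC99 arrays. It had the smallest difference of the 10 genes, -0.01, with a 95% interval from 90.1% to 109.9% of the control level (adjusted p = 0.958). DLST, the lipoylated core of 2-oxoglutarate dehydrogenase, gave 6.37, 6.25 and 6.13 on the shGFP arrays and 6.38, 6.43 and 6.42 on the shGLDC99 arrays. The shGLDC99 values were the higher ones, though the lowest exceeded the highest shGFP value by only 0.0092, and the difference of 0.16 ± 0.08 (SE) was not past the threshold (adjusted p = 0.268).

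OGDH, the thiamine-dependent first subunit of the same complex, gave 7.64, 7.48 and 7.67 on the shGFP arrays and 7.39, 7.36 and 7.30 on the shGLDC99 arrays. Here the shGLDC99 values were all the lower ones. The difference of -0.25 ± 0.08 (SE) corresponded to 84.2% of the control level, with a 95% interval from 74.4% to 95.3% (adjusted p = 0.0946). It was past the threshold without the dimmest 40% of genes (adjusted p = 0.0341) and when the prior variance followed intensity (0.0147), and in none of the other 12 settings.

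**Figure D2:**
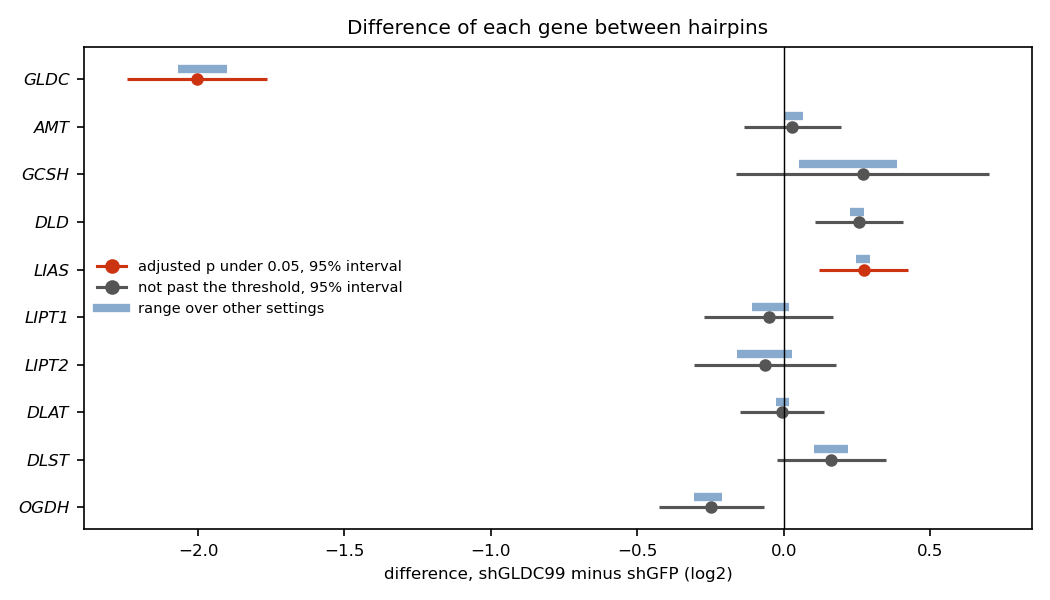
Difference between shGLDC99 and shGFP for each gene on the log2 scale (point) with its 95% interval from limma (line), red where the adjusted p is under 0.05; the blue bar above each gives the range over the other settings. GLDC at -2.00 stands alone, LIAS, DLD and OGDH have intervals that leave out 0, and DLAT lies at -0.01.

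A list of other 2-oxoacid dehydrogenase genes and their regulators, which also holds GCDH, had 9 of 19 genes measured. Of these 2 fell (4.8% of all genes did) and 0 rose, which left 7 without a call, with a median difference of 0.05 against -0.01 over all genes. An unadjusted p under 0.05 was found for 3 of the 9, against 24.4% of all genes. The 2 falls were DHTKD1, the first subunit of the 2-oxoadipate dehydrogenase of lysine breakdown, and GCDH, the glutaryl-CoA dehydrogenase that acts next in that route and is an acyl-CoA dehydrogenase, so 1 fall was of a 2-oxoacid dehydrogenase gene. DHTKD1 gave 7.50, 7.46 and 7.48 on the shGFP arrays and 7.08, 7.18 and 7.19 on the shGLDC99 arrays. It fell by 0.33 ± 0.06 (SE), or to 79.6% of the control level (adjusted p = 0.0280). GCDH gave 5.50, 5.45 and 5.45 on the shGFP arrays and 5.11, 5.06 and 4.99 on the shGLDC99 arrays. It fell by 0.41 ± 0.06 (SE), or to 75.1% (adjusted p = 0.0137), with the shGLDC99 mean of 5.05 just under the median gene level. For both genes the groups were well separated. The call of DHTKD1 held in 6 of 14 other settings: it was lost without any 1 of the 6 arrays and with all probe sets tested, among others. That of GCDH held in 8 of 14, and among the fits without 1 array only in that without shGLDC99 array a.

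OGDHL, the second gene for the first subunit of 2-oxoglutarate dehydrogenase, differed by 0.24 (adjusted p = 0.0923). The pyruvate dehydrogenase subunits PDHA1 and PDHB differed by 0.16 (adjusted p = 0.311) and -0.03, and DBT, the lipoylated core of branched-chain dehydrogenase, by 0.01. The kinase BCKDK (0.25, adjusted p = 0.376), the phosphatase PDP1 (0.12) and its regulator PDPR (0.05) were not past the threshold. PDHB and DBT fall outside the rule for named genes and complete the measured subunits. The pyruvate dehydrogenase kinases were not analysed here.

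**Figure D3:**
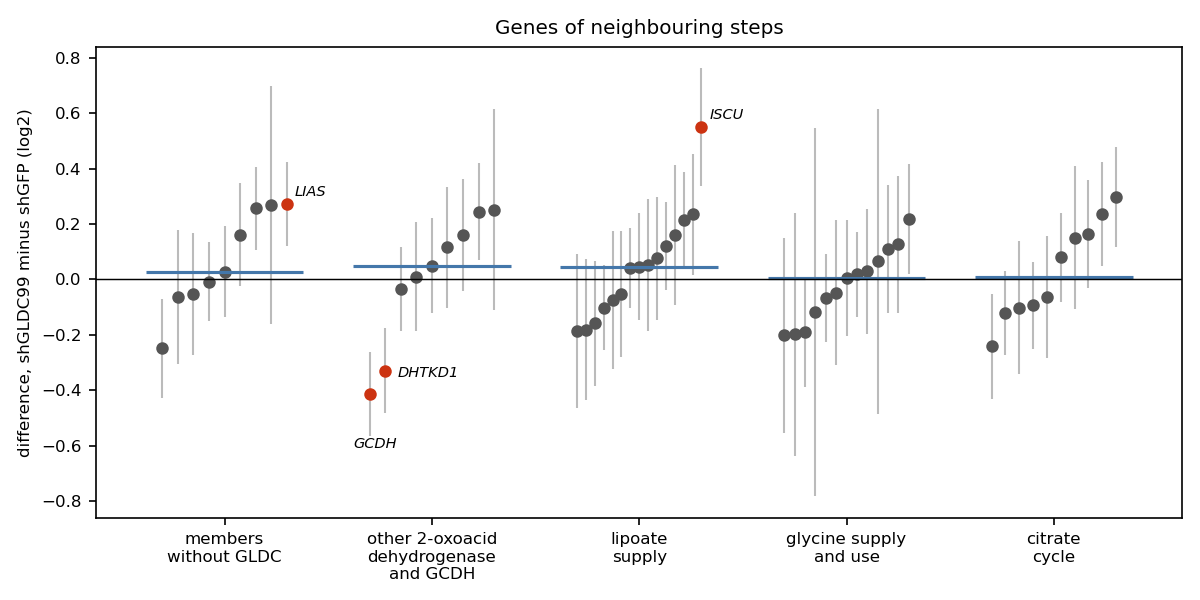
Difference between shGLDC99 and shGFP (log2) for the 9 genes other than GLDC and for 4 lists of neighbouring steps; each point is a gene with its 95% interval, red where the adjusted p is under 0.05, and the blue line is the median. The medians lie near 0, and the named points are the rises of LIAS and ISCU and the falls of DHTKD1 and GCDH.

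The supply of lipoate needs mitochondrial fatty acid synthesis for the octanoyl chain and iron-sulphur clusters for LIAS. Of 23 listed genes 15 were measured, of which 1 rose and 0 fell, which left 14 without a call, with a median difference of 0.05. Over all genes 8.52% were called, so 1 of 15 is no excess, and the 3 of 15 with an unadjusted p under 0.05 compare with 24.4% of all genes. ISCU, the scaffold on which iron-sulphur clusters are assembled, gave 5.95, 6.03 and 6.09 on the shGFP arrays and 6.64, 6.41 and 6.66 on the shGLDC99 arrays. The lowest shGLDC99 value was above the highest shGFP value. ISCU rose by 0.55 ± 0.09 (SE), or 1.46-fold (adjusted p = 0.0166), a call kept without shGLDC99 array b and lost without each of the other 5 arrays in turn. In all it held in 7 of 14 settings, and it was also lost without moderation of the variances.

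BOLA3, which helps hand clusters to lipoate synthase, differed by 0.21 (adjusted p = 0.133), and CBR4, a subunit of the ketoacyl reductase of mitochondrial fatty acid synthesis, by 0.24 (adjusted p = 0.176). Its partner subunit HSD17B8 differed by -0.18 (adjusted p = 0.367). The cluster assembly factors ISCA1 and HSCB differed by 0.12 and -0.16. NFS1, the desulphurase that supplies the sulphur and is named outside the rule, differed by -0.05. None of the other 14 measured genes of lipoate supply was past the threshold.

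Genes that supply or use glycine showed no call. Of 24 listed 13 were measured, and 0 rose and 0 fell by limma. Over all genes 8.52% were called, so 0 of 13 is no clear departure from that share. An unadjusted p under 0.05 was found for 1 (24.4% of all genes had one), MTFMT, the formyltransferase of the mitochondrial initiator tRNA (0.22, adjusted p = 0.167). GNMT, a glycine methyltransferase, differed by -0.19 (adjusted p = 0.219) and the cytosolic hydroxymethyltransferase SHMT1 by -0.20 (adjusted p = 0.470). SHMT2, the mitochondrial enzyme that makes glycine from serine, differed by 0.03 with a 95% interval from -0.20 to 0.26; it is named outside the rule. DMGDH (0.13), which feeds mitochondrial folate from dimethylglycine, and GCAT (0.11), the glycine acetyltransferase, were not past the threshold. GNMT, DMGDH and 4 others of the 13 lay at or below the brightest hepatocyte marker (4.64), so a change of these 6 could have been missed. The median difference of the list was 0.01.

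The citrate cycle receives the products of pyruvate and 2-oxoglutarate dehydrogenase. Of 27 listed genes 10 were measured, 0 rose and 0 fell by limma, and 3 had an unadjusted p under 0.05, near the 24.4% of all genes. These were 2 subunits of the NAD-dependent isocitrate dehydrogenase, IDH3B (0.30, adjusted p = 0.0596) and IDH3A (0.24, adjusted p = 0.119), and MPC2, a subunit of the mitochondrial pyruvate carrier (-0.24, adjusted p = 0.116). IDH3B gave 8.02, 7.88 and 8.06 on the shGFP arrays and 8.33, 8.32 and 8.21 on the shGLDC99 arrays, without overlap. MPC1, the other carrier subunit, differed by 0.16 (adjusted p = 0.287). ACLY, which makes acetyl-CoA from citrate in the cytosol, differed by -0.12 (adjusted p = 0.310). The list median was 0.01. Quantile normalization of the deposited values gave 1 call in this list. Leaving out the dimmest 40% of genes, or a prior variance that follows intensity, gave 3 each. The remaining settings gave 0.

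Genes next to the 10 on the chromosome were read as a check of location. In the reference gene table the nearest gene on each side and any overlapping gene came to 28 neighbours, of which 13 were measured. Of these 0 rose and 1 fell, against 3.72% and 4.8% of all genes. RPL9, a ribosomal protein gene that lies beside LIAS on the opposite strand, differed by 0.12 (adjusted p = 0.324), less than LIAS itself, though that difference was not tested. The gene that fell was DIXDC1, a Wnt pathway scaffold next to DLAT, which went from 8.05 to 7.60 (difference -0.46, adjusted p = 0.0184) while DLAT differed by -0.01. NICN1, which overlaps AMT in the table, differed by 0.03 (adjusted p = 0.865). No neighbour of GLDC, DLD or LIPT2 was measured under its name.

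The 5 genes whose levels were most like those of GLDC over the 6 arrays were taken by Pearson correlation among 504 genes with a range of at least 1 on the log2 scale. They were PPIL1, a spliceosomal peptidyl-prolyl isomerase (r = 0.998), ARHGEF26 (0.998), PCDH9, a protocadherin (0.997), TOX, an HMG-box protein (0.994), and HMCN1, an extracellular matrix protein (0.994). These points share the same arrays and the same split between hairpins, so the correlations mostly restate that all 5 were lower with shGLDC99. PPIL1 went from 9.44 to 8.40 and ARHGEF26 from 6.51 to 5.46.

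**Figure D4:**
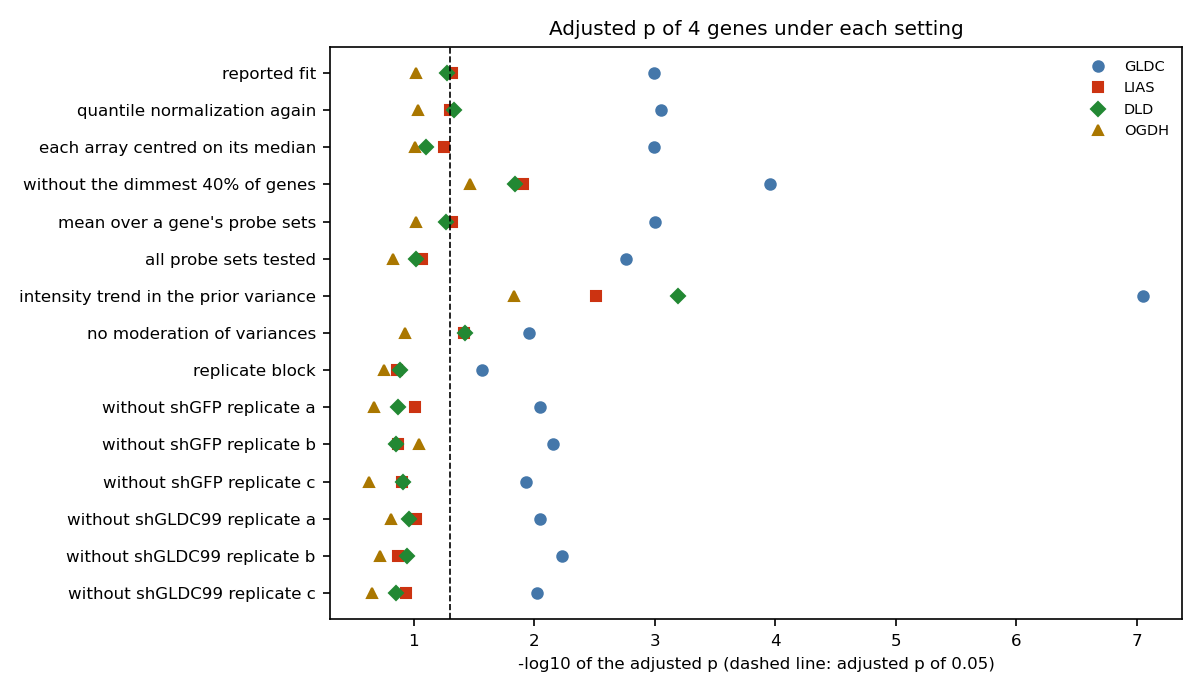
Adjusted p on a -log10 scale for GLDC, LIAS, DLD and OGDH in the reported fit and under each other setting; points right of the dashed line have an adjusted p under 0.05. GLDC is to the right of the line in every row, and LIAS, DLD and OGDH are to its left in every fit that leaves out 1 array.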

How the data were processed

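RNA was measured on 6 arrays, 3 per group. The authors deposited 1 log2 value per probe set and array. The base is not stated and is inferred from the maximum of 13.28, since natural logs of 16-bit intensities end at 11.09. The submitters' processing notes name Partek; how it corrected, normalized and summarised the probes is not given in the sources used here. The medians of the arrays spanned 4.28 to 4.33, and nothing was normalized further. Of 31135 probe sets 15098 carried a single gene symbol, covering 14779 genes, each read by its probe set of highest mean. Probe sets with several symbols or none were left out of the gene fit. Genes read only by such probe sets count here as not measured. The number of arrays limits the precision.

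limma 3.58.1 (R 4.3.3; lmFit and eBayes without covariates) tested shGLDC99 minus shGFP, with Benjamini-Hochberg adjustment over 14779 genes; 95% intervals are per gene. The script was tested on simulated data. The genes and the pathway and marker lists were chosen with earlier results of these data known. Named were the 10 genes, called genes and up to 5 others of smallest adjusted p per pathway list, chromosomal neighbours and the 5 genes most like GLDC; exceptions are marked. Only 1 olfactory receptor was measured, so hepatocyte markers served as the dim comparison instead. Alternatives were 8 settings and leaving out each array. Figures used matplotlib 3.10.9.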

Additional observations from a re-analysis of the deposited data

How the results depend on the processing

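GLDC stayed past the threshold under all 14 settings, with a difference between -2.07 and -1.90 and an adjusted p of at most 0.0273. The 2 calls among the 10 genes became 1 with each array centred on its median, with all probe sets tested and with the replicate block. They also became 1 in each of the 6 fits without 1 array. They became 3 with quantile normalization of the deposited values or no moderation. Without the dimmest 40% of genes, or when the prior variance followed intensity (the trend), they became 4. Over all genes, 1259 calls became 2221 without the dimmest 40%, 2438 with the trend, 229 with the replicate block (3316 at an unadjusted p under 0.05) and 461 to 546 without 1 array. With the block the calls of LIAS (adjusted p = 0.136), DHTKD1, GCDH and ISCU were all lost. The 2 calls among other dehydrogenase genes became 3 without the dimmest 40%, where OGDHL was also called. They became 1 with all probe sets tested, 0 with the replicate block (3 at an unadjusted p under 0.05) and 0 to 1 without 1 array. The 1 lipoate supply call became 3 with the trend, 0 without moderation (2 unadjusted), 0 with the replicate block (3 unadjusted) and 0 to 1 without 1 array. The 0 citrate cycle calls became 1 with quantile normalization of the deposited values and 3 without the dimmest 40% or with the trend. Fewer genes are tested without the dimmest 40%, more with all probe sets, and fewer arrays enter when 1 is left out; for the rest the cause was not tested. No called gene of the 10 changed sign. Same-letter arrays did not deviate together (correlations of -0.012, 0.018 and -0.0011), so the letters are not taken to pair them. AMT could not be fitted without the dimmest 40%, which leaves it out. AMT and GCSH are limited by their low signal.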
